A study of Rattus norvegicus with 8 samples.

Results

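The endoplasmic reticulum (ER) chaperones and the genes of the unfolded protein response were followed in primary rat chondrocytes treated with TNFα, with the MEK1/2 inhibitor U0126, or with both. The genes were a list of 42 symbols, taken when they had a probe set of their own in the annotation of the Affymetrix RAT230_2.0 array. That was the case for 41 of the 42, out of 14217 genes with such a probe set on the array. The missing one was Ern1, the gene of the sensor IRE1. Each gene is given by the probe set with its highest mean level. Primary chondrocytes of the femoral condyles of Sprague Dawley rats 1 day old were grown as monolayers on plastic, outside their matrix, and were kept without serum overnight before treatment. All cultures were pretreated for 30 min and then kept for 24 h. The 4 treatments were U0126 followed by TNFα at 30 ng/ml, DMSO followed by TNFα, U0126 followed by the BSA vehicle, and DMSO followed by that vehicle. They are called U0126 with TNFα, TNFα, U0126 and DMSO. DMSO is the solvent of the inhibitor, so cells of the TNFα group received it as well. With 2 independent experiments and 1 array per treatment in each, the data comprise 8 arrays.

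Secreted and membrane proteins enter the ER through the Sec61 channel and are folded there by chaperones, lectins and protein disulfide isomerases. Proteins that do not fold are drawn back out of the ER and degraded. When unfolded protein accumulates, the sensors IRE1, ATF6 and PERK raise the transcription of chaperones, degradation factors and translocon subunits through XBP1 and ATF6, and of amino acid synthesis and feedback genes through ATF4, which PERK switches on by slowing translation. ATF4 also answers to amino acid shortage and other stresses through other kinases than PERK. Chondrocytes export very large amounts of collagen and aggrecan, and in mice the loss of the ER-stress type transcription factor Creb3l2 impairs cartilage matrix secretion.

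The values are summary intensities on a linear scale, which lie between 15.2 and 34845 for the whole array, with array medians between 365.1 and 378.2. Each array was centred on its median, and the intensities below are the centred values. The precision is set by the number of arrays. A fold is taken between arrays of the same experiment, and the fold threshold asks that both experiments reach 1.45-fold in 1 direction. Tests are from limma with the experiment as a block, with p values adjusted over 31042 probe sets. Of the chondrocyte markers, Col2a1 and Acan among them, 10 of 12 had a probe set and 6 of these fell with TNFα over DMSO, against 1.78% of all probe sets. The 10 held summed intensities of 118934 to 176338 with U0126 and TNFα, 91603 to 137792 with TNFα, 129682 to 187496 with U0126 and 116639 to 179426 with DMSO. The leukocyte marker Ptprc had an intensity between 60.6 and 69.7 on the 8 arrays, and the endothelial marker Pecam1 one between 72.7 and 80.4. Of 5 endothelial markers, 0 passed for TNFα over DMSO or for U0126 over DMSO. For TNFα over DMSO 3 had an unadjusted p under 0.05, against 25.9% of all probe sets. The log2 fold changes ran from -0.28 to 0.17, 4 of them negative. For U0126 over DMSO 4 did, against 13.3%, from -0.28 to 0.42, again 4 negative. The 5 summed to 641 to 935 with TNFα, 673 to 1021 with U0126 and 692 to 934 with DMSO. Of 12 macrophage markers, Cd68 and Fcgr2b rose with TNFα (1.80-fold and 1.69-fold, adjusted p = 0.0228 and 0.0154), while 7 of the 12 had a log2 fold change below 0 and the median was -0.05. The list summed to 4035 to 5044 with TNFα and 3273 to 4647 with DMSO. Of 7 fibroblast markers, Pdgfra rose to 1.56-fold and Dpt fell to 0.64-fold (adjusted p = 0.0482 and 0.0207), and the list summed to 89856 to 105943 with TNFα and 87294 to 106874 with DMSO. None of 4 osteoblast markers passed for TNFα over DMSO, with 3 at an unadjusted p under 0.05, against 25.9% of all probe sets. All 4 were lower in both experiments, against 37.5% of all genes, and summed to 225 to 281 with TNFα and 262 to 595 with DMSO. The part of these markers in the results was not tested. Fewer cells of a type and less RNA per cell cannot be told apart in RNA of whole cultures.

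The classical ER chaperones stayed close to their DMSO level with TNFα, and their intervals were narrow. Hspa5, which encodes the central chaperone BiP, had intensities of 14524 and 12713 with TNFα and 15796 and 13749 with DMSO in experiments 1 and 2. Its log2 fold change was -0.12 (95% interval -0.26 to 0.02, adjusted p = 0.251). Both experiments put Hspa5 slightly lower with TNFα, at 0.92-fold and 0.92-fold, and the groups overlap because experiment 2 was lower in every treatment. Hsp90b1, the ER form of HSP90, had intensities of 15109 and 13312 with TNFα and 15325 and 14111 with DMSO, a log2 fold change of -0.05 (95% interval -0.20 to 0.09). Calr, a calcium-binding lectin that holds glycoproteins during folding, had 19483 and 18446 with TNFα and 19024 and 19351 with DMSO, a log2 fold change of -0.02 (95% interval -0.17 to 0.13). In both cases the 2 groups overlap. Canx, its membrane-bound relative, lay on the other side at 11387 and 9060 with TNFα and 10226 and 8040 with DMSO. It was 1.11-fold and 1.13-fold higher in the experiments, which did not pass the test (adjusted p = 0.156).

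Of the 9 chaperones and co-chaperones, 0 passed the limma test for TNFα over DMSO, where 5.19% of all probe sets did. Canx alone, 1 of the 9, had an unadjusted p under 0.05, against 25.9% of all probe sets. The log2 fold changes ran from -0.13 to 0.16 with a median of -0.10. All 9 had a 95% interval inside the range of 1.45-fold either way, against 87.5% of all genes. Dnajb9 and Dnajc3, co-chaperones of BiP that are well-known targets of the response, were at -0.11 and -0.13, and Sdf2l1, another partner of BiP, was at 0.08. Hyou1, which exchanges the nucleotide on BiP, had 2947 and 2844 with TNFα and 3008 and 3215 with DMSO, a log2 fold change of -0.10. Its groups do not overlap, and all values lie within a narrow range. These chaperone probe sets sit in the upper part of the intensity range, and whether their folds are compressed there was not tested. The plot of intensities per array shows the flat course of Hspa5, Hsp90b1, Calr and P4hb over the 4 treatments.

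**Figure D1:**
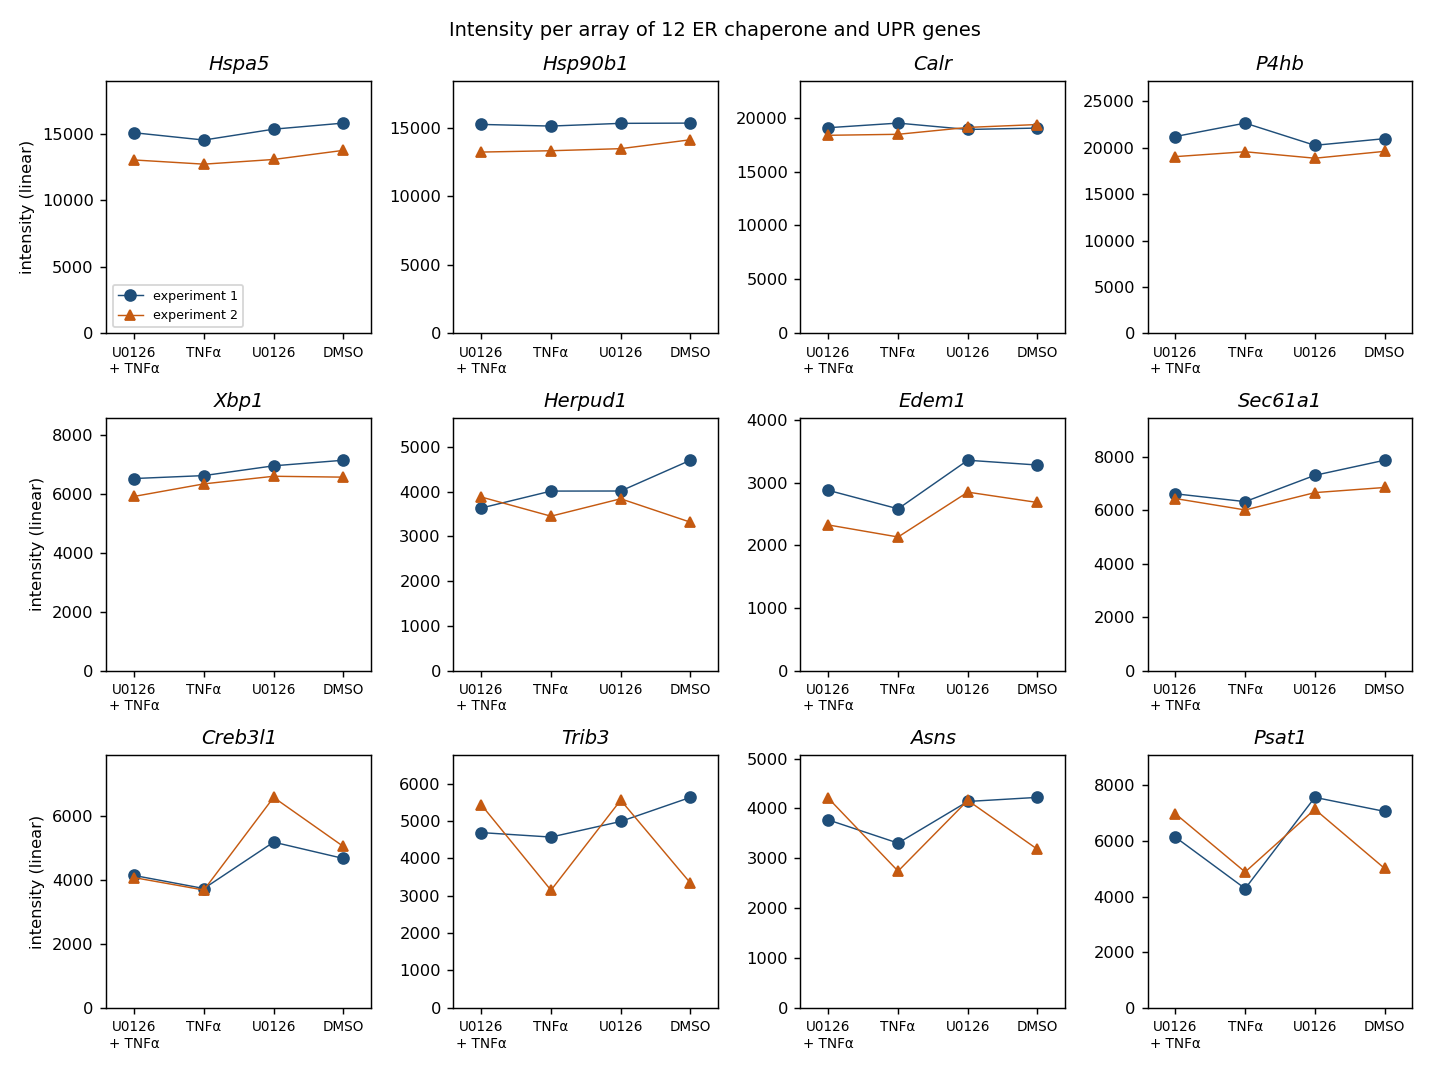
Intensity (linear, from 0) of 12 genes on each of the 8 arrays, with the treatments U0126 + TNFα, TNFα, U0126 and DMSO from left to right and 1 line per experiment. Hspa5, Hsp90b1, Calr, P4hb and Xbp1 run nearly level, Edem1 is lower with TNFα in both experiments (0.79-fold each), and Trib3 and Asns in experiment 2 are low in both groups without U0126.

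Several of the chaperone genes share a promoter sequence that is known for its role in such genes. Its share among them therefore describes the list and is no independent support. The ER stress response element (ERSE), the site through which ATF6 with NF-Y raises chaperone genes, was searched as CCAAT and CCACG with 9 free bases between them, on both strands in RefSeq promoter windows of the GRCr8 build, from 250 bases before to 50 after each gene's start. A window was found for 34 of the 41 genes, all but Pdia3, Pdia6, Manf, Derl1, Atf6, Atf3 and Sec61a1. In 20 of the 34 the start is the outer boundary of the RefSeq gene. In the other 14, which include Canx (97 bases), Creld2 (630 bases), Herpud1 (9461 bases) and Edem1 (2686 bases), it lies that far inside the annotated gene, so other starts of these genes were not searched. The ERSE occurred in 7 of the 34, or 20.6%, and in 0.076% of 27457 promoters of the same length. The shorter form ERSE-II, searched as ATTGG and CCACG with 1 free base between them, was found in Hyou1, Dnajb11 and Herpud1, against 0.055% of all promoters. Hyou1 also held TGACGTGG, the UPRE bound by XBP1 and ATF6, which overlaps one of its ERSE-II sites and occurs in 0.637% of promoters. These matches are descriptions of the sequence and not of binding. The ERSE sites are given below in the direction of the motif, with the fixed letters in capitals and the free spacer in lower case, to show the element in each gene that holds it.
Hspa5, 43 to 25 bases before the start: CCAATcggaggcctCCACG
Hsp90b1, 176 to 158 bases before the start: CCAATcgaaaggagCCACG
Hsp90b1, 72 to 54 bases before the start, reverse strand: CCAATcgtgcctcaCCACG
Calr, 232 to 214 bases before the start, reverse strand: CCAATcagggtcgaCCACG
Canx, 230 to 212 bases before the start: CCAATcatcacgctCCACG
Dnajc3, 133 to 115 bases before the start: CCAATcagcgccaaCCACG
Creld2, 145 to 127 bases before the start, reverse strand: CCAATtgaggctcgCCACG
Xbp1, 65 to 47 bases before the start: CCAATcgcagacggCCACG

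The 250 bases before the start of Hspa5 and Hsp90b1 show these sites in place, with the ERSE in capitals. They are at chr3:38452766-38453015 (forward strand) and chr7:23012294-23012543 (reverse strand) of GRCr8.
Hspa5: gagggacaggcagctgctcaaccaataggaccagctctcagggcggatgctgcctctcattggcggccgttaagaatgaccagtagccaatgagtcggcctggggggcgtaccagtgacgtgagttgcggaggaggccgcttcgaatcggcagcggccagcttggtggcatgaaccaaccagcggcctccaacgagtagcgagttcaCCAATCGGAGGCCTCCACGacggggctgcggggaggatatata
Hsp90b1: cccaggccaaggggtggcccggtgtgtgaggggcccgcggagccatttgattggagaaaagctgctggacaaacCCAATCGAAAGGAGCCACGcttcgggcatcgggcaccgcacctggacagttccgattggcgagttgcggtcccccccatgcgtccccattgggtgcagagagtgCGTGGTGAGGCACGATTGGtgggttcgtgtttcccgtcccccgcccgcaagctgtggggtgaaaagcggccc

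Besides the chaperones, Xbp1 and Creld2 carry the ERSE. Xbp1, the transcription factor that IRE1 activates by splicing and ATF6 raises in transcription, had intensities of 6531 and 5924 with U0126 and TNFα, 6631 and 6349 with TNFα, 6963 and 6608 with U0126 and 7153 and 6578 with DMSO. With TNFα it lay at 0.93-fold and 0.97-fold of DMSO (log2 fold change -0.08, adjusted p = 0.427). Spliced and unspliced Xbp1 transcripts are not told apart by this value. Creld2 and Manf, small proteins of the ER that are secreted under ER stress, had log2 fold changes of -0.19 and -0.12 with TNFα over DMSO. Creld2 was lower in both experiments, at 2699 and 2342 with TNFα and 3231 and 2543 with DMSO, and the groups overlap (adjusted p = 0.134).

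The protein disulfide isomerases, which form and rearrange disulfide bonds, likewise stayed close to their DMSO level with TNFα. P4hb, which is also the beta subunit of the collagen prolyl 4-hydroxylase, had 22635 and 19553 with TNFα and 20960 and 19595 with DMSO, a log2 fold change of 0.05 (95% interval -0.10 to 0.20). Pdia3, Pdia4 and Pdia6 lay between -0.08 and 0.06. Pdia5 was the lowest of the 5 at -0.20 (adjusted p = 0.208), with 1440 and 1184 with TNFα and 1753 and 1278 with DMSO. Of the 5 isomerases, 0 passed the limma test for TNFα over DMSO and 0 had an unadjusted p under 0.05, against 5.19% and 25.9% of all probe sets. With U0126 over DMSO they lay between -0.05 and 0.06.

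Over all 41 genes, TNFα over DMSO gave 1 call, Edem1, or 2.44%, where 5.19% of all probe sets were called, 3.41% higher and 1.78% lower. The unadjusted p was under 0.05 for 10 of the 41 and for 25.9% of all probe sets. None of the 41 passed the fold threshold of 1.45 in both experiments, which 2.02% of all probe sets did. The log2 fold change was below 0 for 33 of the 41, against 52.5% of all genes, and 25 of the 41 were lower in both experiments, against 37.5% of all genes. In 11 of the 41 the groups do not overlap and TNFα is lower, against 24.7% of all genes. The median of the 41 was -0.10, against -0.01 over all genes. Within the experiments their median log2 fold was -0.16 in experiment 1 and -0.05 in experiment 2, against -0.004 and -0.02 over all genes. The 95% interval lay inside 1.45-fold either way for 33 of the 41, against 87.5% of all genes. The standard errors of the 41 ran from 0.06 to 0.23, and the widest were those of Trib3 and Ddit3. The plot of the responses to TNFα orders them by role.

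**Figure D2:**
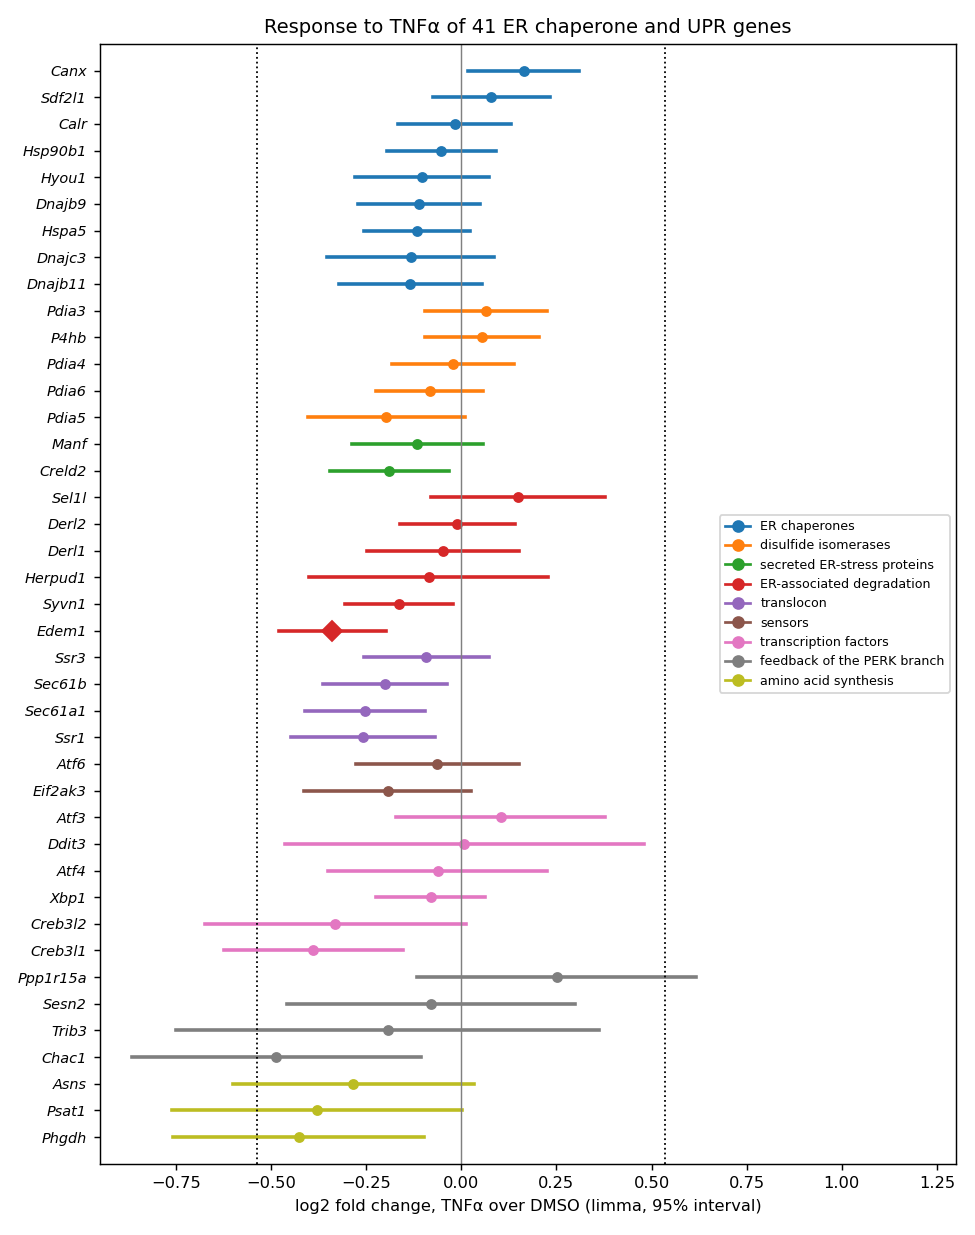
log2 fold change of TNFα over DMSO for 41 genes, coloured by role, with 95% intervals from limma. Dotted lines mark 1.45-fold either way, and the diamond marks Edem1, the gene that passed the test. Chaperone and isomerase intervals lie inside the dotted lines, and intervals of amino acid synthesis and feedback genes are wider.

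Edem1, which takes mannose-trimmed glycoproteins out of the folding cycle towards degradation, fell with TNFα. Its intensities were 2581 and 2132 with TNFα and 3280 and 2682 with DMSO, so the groups do not overlap. It was at 0.79-fold of DMSO in both experiments (limma log2 fold change -0.34 with a standard error of 0.06, adjusted p = 0.0276). With U0126 and TNFα it had 2876 and 2324, against 3356 and 2847 with U0126 alone, at 0.86-fold and 0.82-fold, which did not pass (adjusted p = 0.123). The other probe sets of Edem1, of mean intensity 875 and 369, had log2 fold changes of -0.20 and -0.17 and did not pass (adjusted p = 0.424 and 0.491). The call was lost whichever 1 of the 8 arrays was left out, with an adjusted p of 0.0625 to 0.130, and with no replicate block (adjusted p = 0.533). The log2 fold change then stayed between -0.35 and -0.33. Its promoter window, at chr4:143353425-143353674 (forward strand) for the 250 bases before the start, held none of the motifs searched.

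The other factors of ER-associated degradation moved less. Syvn1, the ubiquitin ligase of the pathway, had 3399 and 3262 with TNFα and 3884 and 3583 with DMSO. Both TNFα values lie below both DMSO values (log2 fold change -0.16, adjusted p = 0.149). With U0126 and TNFα it had 3132 and 2922, against 3669 and 3550 with U0126, again without overlap (log2 fold change -0.25, adjusted p = 0.129). Sel1l, the partner of Syvn1, was at 0.15, and Derl1 and Derl2, membrane proteins of the exit channel, were at -0.05 and -0.01. Herpud1, an ER membrane protein that assembles the ligase complex, differed in direction between the experiments, at 0.85-fold and 1.04-fold of DMSO. Of 21 further degradation genes, such as Os9, Vcp and Ube2j1, 0 passed the limma test for TNFα over DMSO, where 5.19% of all probe sets did. Of the 21, 3 had an unadjusted p under 0.05, against 25.9% of all probe sets, and their median log2 fold change was -0.01.

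The translocon genes had lower values with TNFα in both experiments without passing the test. Sec61a1, the pore of the channel, had 6330 and 6019 with TNFα and 7880 and 6860 with DMSO, with no overlap (0.80-fold and 0.88-fold, log2 fold change -0.25, adjusted p = 0.078). It passed after quantile normalization and with a trended prior. Sec61b, a small subunit, had 8296 and 8312 with TNFα and 9855 and 9232 with DMSO, also without overlap (log2 fold change -0.20, adjusted p = 0.132). Ssr1, a subunit of the translocon-associated complex, had 7953 and 6851 with TNFα and 10389 and 7508 with DMSO, where the groups overlap (log2 fold change -0.26, adjusted p = 0.108). Its partner Ssr3 was at -0.09. All 4 were lower in both experiments with TNFα, against 37.5% of all genes. Of the 4, 3 had an unadjusted p under 0.05, against 25.9% of all probe sets. The other probe sets of Sec61a1 were at -0.07 and -0.11, closer to 0 than the one used. The other probe set of Ssr1 was at -0.28, and those of Ssr3 differed in sign, at -0.11 and 0.16. With U0126 and TNFα over U0126, Sec61a1 and Ssr1 were at -0.10 and -0.10, Sec61b at -0.17 with no overlap (adjusted p = 0.363), and Ssr3 at 0.05. The 26 other genes of translocation and N-glycosylation had a median of -0.03 for TNFα over DMSO, with 0 called and 6 at an unadjusted p under 0.05. The 30 measured genes of transport from the ER to the Golgi had a median of -0.11, with 0 called and 8 at an unadjusted p under 0.05. Of all probe sets 5.19% were called and 25.9% had an unadjusted p under 0.05. Of the 30 transport genes 24 were lower in both experiments, against 37.5% of all genes.

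The sensors and the transcription factors related to Atf6 differed among themselves. Atf6 and Eif2ak3, the gene of PERK, were at -0.06 and -0.19 with TNFα over DMSO and did not pass. Atf6 had 3798 and 3894 with U0126 and TNFα and 3308 and 3093 with TNFα, without overlap (1.15-fold and 1.26-fold, adjusted p = 0.306). Creb3l1, a membrane-bound factor of the ATF6 type known in bone for raising type I collagen, had the lowest log2 fold change of the 6 transcription factors with TNFα over DMSO. It had 3727 and 3679 with TNFα and 4667 and 5042 with DMSO, with no overlap (0.80-fold and 0.73-fold, log2 fold change -0.39, adjusted p = 0.072), and it passed after quantile normalization. With U0126 and TNFα it had 4134 and 4067, against 5177 and 6576 with U0126, at 0.80-fold and 0.62-fold (log2 fold change -0.51, adjusted p = 0.0761). Both contrasts, which share no array, put Creb3l1 lower with TNFα in both experiments, and both missed the threshold. Creb3l2 had 444 and 402 with TNFα and 663 and 426 with DMSO, at 0.67-fold and 0.94-fold, so experiment 1 carried most of the difference (adjusted p = 0.203).

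The genes of the ATF4 arm and of amino acid synthesis on the list are Atf4 itself, Ddit3 and Atf3, transcription factors that ATF4 raises, Trib3, Ppp1r15a, Chac1 and Sesn2, which feed back on the response or on growth, and Asns, Psat1 and Phgdh, which make asparagine and serine. They were put together here with their values in view, so their counts are descriptions, and none of the 10 passed a test. Trib3, an inhibitor of ATF4 activity, had 4688 and 5433 with U0126 and TNFα, 4568 and 3146 with TNFα, 4986 and 5557 with U0126 and 5631 and 3338 with DMSO. In experiment 1 the 4 values lie between 4568 and 5631, and in experiment 2 both arrays with U0126 are high and both without it are low. Sesn2, an inhibitor of mTORC1 signalling, had 4291 and 5319 with U0126 and TNFα, 3767 and 3457 with TNFα, 4230 and 5531 with U0126 and 4173 and 3485 with DMSO. Its highest values are likewise the arrays of experiment 2 with U0126. Atf4 had 12227 and 11991 with U0126 and TNFα, 10739 and 8806 with TNFα, 12401 and 11449 with U0126 and 12278 and 8397 with DMSO. The lowest Atf4 values are the arrays of experiment 2 without the inhibitor.

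Across these 10 genes, U0126 over DMSO had a median fold of 0.99 in experiment 1 and 1.41 in experiment 2. For Trib3 the folds were 0.89 and 1.66, in opposite directions, and for Ddit3 0.90 and 1.45. Between U0126 with TNFα and TNFα, which are other arrays, the median folds were 1.14 in experiment 1 and 1.49 in experiment 2. All 10 had a positive log2 fold change there, between 0.29 and 0.54, against 51.3% of all genes. Of the 10, 9 were higher in both experiments, against 33% of all genes. In 9 the groups do not overlap and are higher with both agents, against 15.6% of all genes. Ddit3 was the exception in both counts. The standard errors were 0.12 to 0.23. Of the 10 genes, 0 passed the limma test for U0126 with TNFα over TNFα or for U0126 over DMSO. The shares of all probe sets that did were 0.254% and 0.058%. For U0126 with TNFα over TNFα 6 had an unadjusted p under 0.05, against 12.7% of all probe sets. For U0126 over DMSO 0 did, against 13.3%. The smallest adjusted p was 0.141, for Atf3. The experiments also differed within a treatment. The median ratio of experiment 2 to experiment 1 was 1.15 with both agents, 0.85 with TNFα, 1.07 with U0126 and 0.76 with DMSO, where all 10 genes were lower in experiment 2. The same ratio over all genes lay between 0.99 and 1.01, which the centring of each array on its median sets in advance. It gives no spread against which to judge the 10 genes. With 1 array per treatment and experiment, an effect of U0126 that differs between experiments and an array that stands apart cannot be told apart. For the 9 chaperones that ratio was 0.87 with both, 0.88 with TNFα, 0.90 with U0126 and 0.87 with DMSO.

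**Figure D3:**
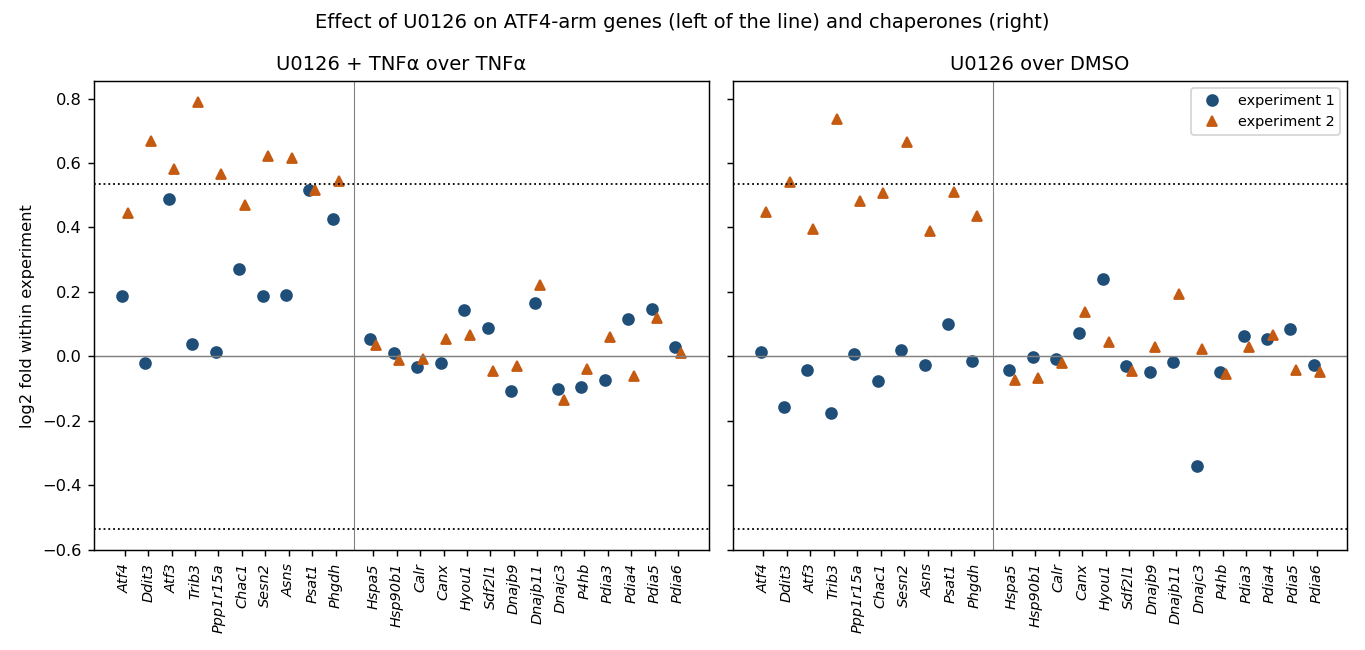
log2 fold within each experiment for U0126 + TNFα over TNFα (left panel) and U0126 over DMSO (right panel), for the 10 ATF4-arm genes and, right of the grey line, 14 chaperones and isomerases. Dotted lines mark 1.45-fold either way. The ATF4-arm genes are high in experiment 2 in both panels, with median folds of 1.49 and 1.41, and near 0 in experiment 1 in the right panel.

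Psat1 and Phgdh, which catalyse successive steps of serine synthesis, differed between U0126 with TNFα and TNFα by nearly the same amount in both experiments. Psat1 had 6133 and 6975 with U0126 and TNFα and 4285 and 4881 with TNFα, at 1.43-fold and 1.43-fold (log2 fold change 0.52, standard error 0.16, adjusted p = 0.271). Phgdh had 2772 and 3695 with both and 2065 and 2532 with TNFα, at 1.34-fold and 1.46-fold (log2 fold change 0.48, adjusted p = 0.236). Neither passed the test, and in both the groups do not overlap. With TNFα over DMSO they were at 0.61-fold and 0.97-fold and at 0.62-fold and 0.88-fold, so the lower values came mainly from experiment 1. Asns, which makes asparagine, had 3770 and 4205 with both and 3304 and 2742 with TNFα, at 1.14-fold and 1.53-fold (adjusted p = 0.291). Chac1, a glutathione-degrading enzyme, had 1524 and 1574 with TNFα and 2571 and 1831 with DMSO, without overlap. Its log2 fold change of -0.49 was the lowest of the 41 and did not pass (standard error 0.16, adjusted p = 0.121). Ppp1r15a, which reverses the block on translation, was the highest of the 41 with TNFα over DMSO, at 1.27-fold and 1.12-fold (log2 fold change 0.25, adjusted p = 0.338).

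Atf3, a factor induced by many stresses, was dim, with 321 and 260 with U0126 and TNFα, 228 and 174 with TNFα, 205 and 215 with U0126 and 211 and 163 with DMSO. Both values with U0126 and TNFα lie above all others. The log2 fold change was 0.54 over TNFα and 0.46 over U0126 (adjusted p = 0.141 and 0.149). The difference between its responses to TNFα with and without U0126 was 0.36 with an adjusted p of 0.56, the smallest among the 41 genes. No detection call was used, so its level is not known to lie above background.

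The sequence that ATF4 binds together with a C/EBP factor was searched as TGATGNAA on both strands of the same windows. It occurred in Herpud1, Trib3 and Chac1, 3 of the 34 genes or 8.82%, and in 3.82% of all promoters. The bases before the start of these genes are shown because they hold this motif, which Herpud1 combines with an ERSE-II, with ERSE-II and the ATF4 type site in capitals. They are at chr3:161275534-161275783 (reverse strand), chr3:126795881-126796130 (forward strand) and chr19:10614708-10614957 (reverse strand) of GRCr8.
Trib3: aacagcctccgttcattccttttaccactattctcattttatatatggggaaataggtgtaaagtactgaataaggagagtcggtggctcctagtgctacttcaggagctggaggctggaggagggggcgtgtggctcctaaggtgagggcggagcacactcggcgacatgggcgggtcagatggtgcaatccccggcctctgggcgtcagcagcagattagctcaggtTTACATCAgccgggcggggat
Chac1: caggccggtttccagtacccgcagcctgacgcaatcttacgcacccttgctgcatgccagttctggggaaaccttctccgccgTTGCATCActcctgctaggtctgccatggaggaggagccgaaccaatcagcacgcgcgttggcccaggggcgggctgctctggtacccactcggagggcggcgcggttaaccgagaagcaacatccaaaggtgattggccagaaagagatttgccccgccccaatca
Herpud1: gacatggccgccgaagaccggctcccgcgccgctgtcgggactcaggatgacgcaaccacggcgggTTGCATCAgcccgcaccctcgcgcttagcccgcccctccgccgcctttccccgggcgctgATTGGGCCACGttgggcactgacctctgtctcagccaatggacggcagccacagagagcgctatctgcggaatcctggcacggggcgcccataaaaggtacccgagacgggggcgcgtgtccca
The site in Trib3 lies 21 to 14 bases before the start, that in Chac1 167 to 160 and that in Herpud1 184 to 177, all on the reverse strand. The ERSE-II of Herpud1 lies 124 to 114 bases before the start. Asns, Atf4, Ddit3, Psat1, Phgdh, Sesn2 and Ppp1r15a had no match in these windows. The starts used for Asns and Psat1 lie 555 and 779 bases inside the annotated gene, so the outer starts of these genes were not searched.

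A wider list of 36 ATF4 targets, with aminoacyl-tRNA synthetases, amino acid carriers and one-carbon enzymes, was measured beside the 10. For U0126 over DMSO its median log2 fold was -0.04 in experiment 1 and 0.34 in experiment 2. For U0126 with TNFα over TNFα it was 0.18 and 0.36, with 27 of the 36 higher in both experiments, against 33% of all genes. For each of these comparisons 0 of the 36 passed the limma test, with 5 and 18 at an unadjusted p under 0.05, against 13.3% and 12.7% of all probe sets. With DMSO, 35 of the 36 were lower in experiment 2 than in experiment 1, with a median ratio of 0.78. With TNFα over DMSO 1 of the 36 rose and 1 fell, against 3.41% and 1.78% of all probe sets. Cebpb, a transcription factor of inflammation that partners ATF4, rose to 2.62-fold and 1.52-fold of DMSO (adjusted p = 0.0438). Fgf21, a secreted hormone, fell to 0.68-fold and 0.69-fold (adjusted p = 0.0064), at the low intensities of 186 and 188 with TNFα against 275 and 272 with DMSO. The 19 other genes of the response's signalling had a positive median log2 fold change of 0.16 with TNFα over DMSO. Of the 19, 9 had an unadjusted p under 0.05, against 25.9% of all probe sets. In both experiments 10 were higher, as were 4646 of all 14217 genes, and 2 were called, against 5.19% of all probe sets. Of the 2 called, Traf2, an adaptor that binds IRE1 and TNF receptors, rose to 1.60-fold with TNFα over DMSO (adjusted p = 0.0058) and to 1.55-fold with U0126 and TNFα over U0126 (adjusted p = 0.0152). Eif2ak2, the interferon-induced kinase PKR, rose to 1.26-fold with TNFα over DMSO (adjusted p = 0.0475).

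**Figure D4:**
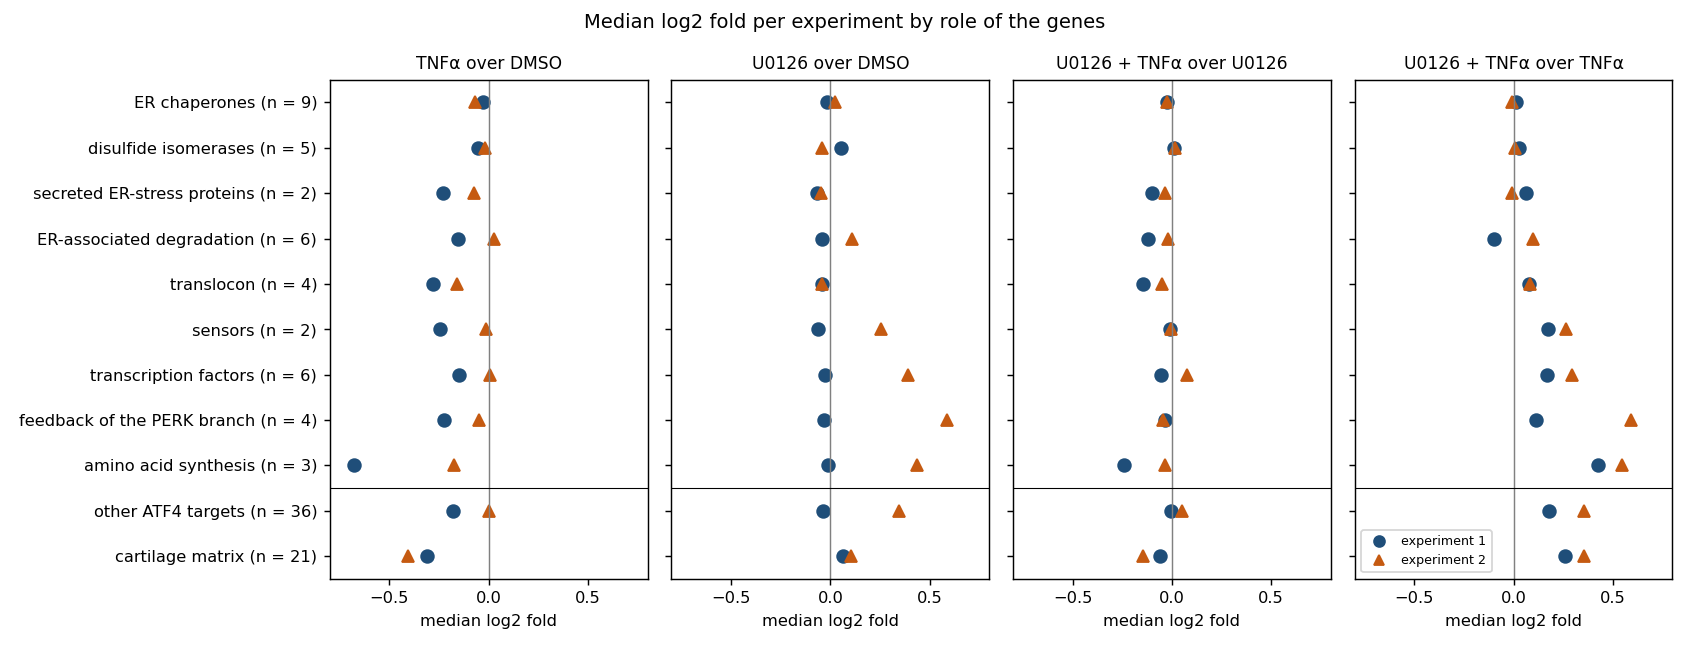
Median log2 fold per experiment for the genes of each role, and below the line for 36 other ATF4 targets and 21 cartilage matrix genes, in 4 comparisons. Chaperones and isomerases lie near 0 in every panel, the ATF4 targets and amino acid genes separate by experiment with U0126 over DMSO, and the matrix genes are lower with TNFα over DMSO in both experiments.

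For U0126 over DMSO, 0 of the 41 genes passed the limma test, where 0.058% of all probe sets did, and 1, Creb3l1, had an unadjusted p under 0.05, against 13.3% of all probe sets. None passed the fold threshold, which 0.29% of all probe sets did. The median was 0.02, and it was -0.03 with quantile normalization. Across the 41 genes the folds of the 2 experiments had a Pearson r of -0.06 for U0126 over DMSO, against 0.52 over all genes. It was 0.55 for TNFα over DMSO, against 0.71 over all genes. For U0126 with TNFα over U0126 it was 0.69, against 0.71, and for U0126 with TNFα over TNFα 0.45, against 0.54. The genes are not independent of each other, and the arrays differ between the experiments. For U0126 with TNFα over TNFα, 0 of the 41 passed, where 0.254% of all probe sets did, with 8 at an unadjusted p under 0.05, against 12.7% of all probe sets, and the median was 0.09. The log2 fold change was above 0 for 32 of the 41, against 51.3% of all genes. Of the 41, 22 were higher in both experiments, against 33% of all genes, and 15 had groups that do not overlap and were higher, against 15.6% of all genes. None passed the fold threshold, against 0.763% of all probe sets.

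With U0126 present throughout, the log2 response to TNFα was smaller in 27 of the 41 genes, or 65.9%, close to the 65.5% of all genes. For U0126 with TNFα over U0126, 0 of the 41 passed the limma test, where 1.24% of all probe sets did, with 6 at an unadjusted p under 0.05, against 12.5% of all probe sets. Their median was -0.06, and none passed the fold threshold, against 1.21% of all probe sets. The TNFα responses measured with the inhibitor and without it come from separate arrays. Across the 41 genes they had a Pearson r of 0.77 and a Spearman rho of 0.78, with the same sign in 37. Over all 14217 genes the Pearson r was 0.80 and the Spearman rho 0.51, with the same sign in 9439. For the 41 genes the median size of the log2 response was 0.09 with U0126 and 0.12 without, against 0.07 and 0.12 over all genes. When limma compared both responses directly, 0 of the 41 differed past the threshold, where 0% of all probe sets did, and 0 had an unadjusted p under 0.05, against 9.13% of all probe sets. The standard errors of that difference had a median of 0.11. In the plot of both responses Creb3l1 and Syvn1 lie below the diagonal of equal responses, and the amino acid genes lie above it.

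**Figure D5:**
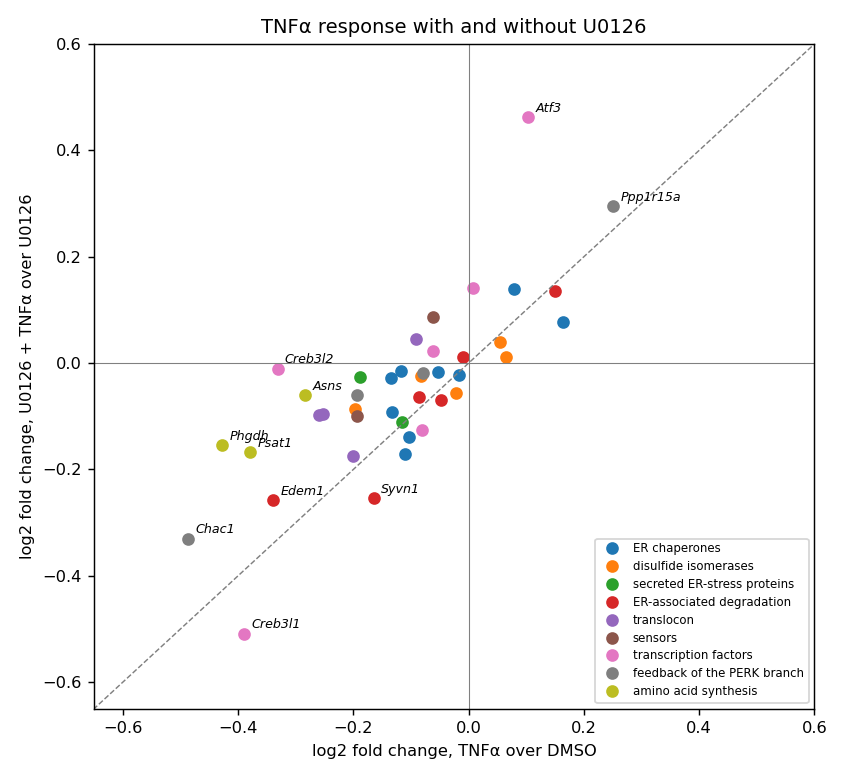
Each point is 1 of 41 genes, with the log2 fold change of TNFα over DMSO on the horizontal axis and that of U0126 + TNFα over U0126 on the vertical axis, coloured by role. The dashed line marks equal responses. The Pearson r across the genes is 0.77, against 0.80 over all 14217 genes. Atf3 (0.10 and 0.46) and Creb3l1 (-0.39 and -0.51) are the points farthest to the top and the bottom.

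The folding genes and the cartilage matrix genes, which use this machinery, were set side by side. With TNFα over DMSO, 1 of the 41 ER genes fell and 0 rose, with a median log2 fold change of -0.10. Of 21 measured cartilage matrix genes 11 fell and 0 rose, with a median of -0.35. Over all probe sets 1.78% were called lower and 3.41% higher. Acan, the aggrecan core protein, was at 0.67-fold and 0.69-fold of DMSO (adjusted p = 0.0064), and Mia, a secreted cartilage protein, at 0.33-fold and 0.47-fold (adjusted p = 0.0027). Cnmd, the cartilage membrane protein chondromodulin, Matn1, a matrix adaptor, and Hapln1, which links aggrecan to hyaluronan, fell to 0.57-fold, 0.66-fold and 0.69-fold (adjusted p = 0.0049, 0.0057 and 0.0263). Col2a1, the type II collagen chain, had 29958 and 24282 with TNFα and 32103 and 26758 with DMSO, close to the top of the intensity range (log2 fold change -0.12, adjusted p = 0.273). The difference between the lists was not tested, and both lists were chosen with earlier results of these data known. With U0126 and TNFα over TNFα, Acan and Cnmd were the 2 of 21 matrix genes that rose (adjusted p = 0.0215 and 0.0331), where 0.254% of all probe sets were called. The median was 0.09 for the ER genes and 0.31 for the matrix genes.

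Of 15 measured genes that modify collagen in the ER, P3h1, which hydroxylates a proline of fibrillar collagens, and Colgalt2, which adds galactose to collagen, fell with TNFα over DMSO, to 0.77-fold and 0.57-fold (adjusted p = 0.0406 and 0.0129). The other 13 did not pass, and the median was -0.08. Of 29 other folding genes of the ER, Fkbp14, a prolyl isomerase that acts on collagen, and Dnajc1, a membrane-bound partner of BiP, fell to 0.73-fold and 0.76-fold (adjusted p = 0.0175 and 0.0452), and the median was -0.02. With Edem1 of the 41 ER genes, 5 genes of these lists passed for TNFα over DMSO, and all 5 were lower. None of these 5 passed in U0126 with TNFα over U0126, where their log2 fold changes were -0.47 to -0.10. The shares called for TNFα over DMSO were 2.44% of the 41, 13.3% of the 15 and 6.9% of the 29. None passed among the 21 further degradation genes, the 26 other translocation and N-glycosylation genes and the 30 transport genes. Of all probe sets 5.19% were called, 1.78% lower and 3.41% higher. The common direction did not hold on every list. Among the other signalling genes and other ATF4 targets, Traf2, Eif2ak2 and Cebpb rose and Fgf21 fell.

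Other probe sets were on the array for 12 of the 41 genes, 18 in all, and 0 of the 18 passed the limma test for TNFα over DMSO. They had the sign of the probe set used in 13 of 18 cases for TNFα over DMSO and in 16 of 18 for U0126 with TNFα over TNFα. The 3 probe sets of Trib3 lay at -0.21 to -0.16 and 0.40 to 0.46 in these comparisons, and those of Derl1 differed in sign for TNFα over DMSO, at -0.05, 0.06 and 0.10.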

How the data were processed

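RNA of 8 cultures was hybridized to Affymetrix RAT230_2.0 arrays. The authors deposited an intensity on a linear scale for each probe set and array. Their processing notes name RMA without a version, and the methods describe division of each chip by its 50th percentile and of each probe set by DMSO. Neither division is visible in the deposited intensities, so log2 values were taken and each array was centred on its median. No detection or saturation calls were used.

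The 31099 probe sets include 57 controls, which were not tested. In the annotation of 2016, 20826 had 1 gene symbol, 436 had several and 9780 had none. The gene list, the roles and the further lists were chosen with earlier results of these data known. Every listed gene is named, and of each further list at most 4 genes per comparison that passed the test, by adjusted p, besides Acan, Col2a1 and Hapln1. Ptprc, Pecam1 and the examples of degradation genes were named beyond this rule.

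Treatment and experiment were terms in a fit to all arrays with limma 3.58.1 (R 4.3.3), moderated by empirical Bayes, with Benjamini-Hochberg adjustment over 31042 probe sets and a threshold of 0.05. The procedure was tested on simulated data. The replicate number in the labels served as the experiment, because the methods form ratios within an experiment, and the deviations of same-numbered arrays from their treatment means correlated at 0.728 to 0.829. The p values measure the spread between these arrays. Alternatives were quantile normalization, uncentred arrays, a filter on the dimmest 40 percent of probe sets, a trended or robust prior, no replicate block, leaving out each array, the mean over a gene's probe sets, and thresholds of 1.3-fold and 2-fold. Tables, motifs and figures were made with Python 3.11.15, numpy 2.4.6, pandas 2.3.3 and matplotlib 3.10.9. Promoters are from RefSeq, build GRCr8.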

Additional observations from a re-analysis of the deposited data

How the results depend on the processing

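The count of ER genes called with TNFα over DMSO, 1 in the fit as described, was 3 with quantile normalization (Creb3l1, Edem1 and Sec61a1), 2 with a trended prior (Edem1 and Sec61a1), and 0 with no replicate block and with the mean over a gene's probe sets. It was 0 to 2 when 1 array was left out, with Chac1 and Phgdh called without DMSO of experiment 2, Creb3l2 without TNFα of experiment 2 and none otherwise. The whole array had 1611 calls, and 456 to 1538 with 1 array left out and 25 with no replicate block. Edem1 stayed negative under every setting tried. In the other comparisons 0 of the 41 genes were called under every setting, 40 being tested after the filter on dim probe sets, from which Atf3 was absent. The median of the 41 genes for TNFα over DMSO was -0.20 to -0.054 with 1 array left out. The lowest value was that without DMSO of experiment 2, and the highest was that without DMSO of experiment 1.

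The median for U0126 over DMSO (0.022) changed sign, at -0.029 with quantile normalization and -0.021 to 0.062 with 1 array left out, the lowest being without DMSO of experiment 2. Other medians moved by more than the spread between the experiments as follows. For U0126 with TNFα over U0126 (-0.057) the median was -0.077 with quantile normalization, -0.025 over a gene's probe sets and -0.11 to -0.018 with 1 array left out. For U0126 with TNFα over TNFα (0.094, where the medians of the experiments had an SD of only 0.0028) it was 0.11 with quantile normalization, 0.082 with no centring, 0.088 with the filter, 0.13 over a gene's probe sets and 0.056 to 0.094 with 1 array left out. For the difference of the responses (0.060) it was 0.12 with quantile normalization and -0.0076 to 0.10 with 1 array left out, so its sign turned without DMSO of experiment 1. With a threshold of 1.3-fold, 3 of the 41 genes passed in both experiments for U0126 with TNFα over TNFα. The share of all probe sets at 1.3-fold was not computed, so this count cannot be set against the whole array. The number of arrays limits what could be called.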
